A study of Mus musculus with 107 samples.

Results

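The reproductive NLR genes Nlrp2, Nlrp4a, Nlrp4b, Nlrp4c, Nlrp4e, Nlrp4f, Nlrp9a, Nlrp9b, Nlrp9c and Nlrp14 were followed in single mouse eggs. They were taken by name from the deposited count table, where all 10 were present among 21564 gene symbols, and all 10 passed the filter on low counts. NLR proteins carry a nucleotide-binding domain and leucine-rich repeats, and many members of the wider family sense microbes or assemble inflammasomes. A set of them is instead expressed mainly in oocytes, where the transcripts are stored during growth and used in the egg and the early embryo. Their relative Nlrp5 (MATER) belongs to the subcortical maternal complex, a protein assembly of the egg cortex that embryos need for cleavage.

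The study compared wildtype C57BL/6J eggs with eggs of C57BL/6J females homozygous for a mutation of Mos, a kinase upstream of MAP kinase that holds mature eggs in metaphase arrest. All groups came from females of 2 to 3 months that received 5 IU of pregnant mare serum gonadotropin 48 h before collection, and their oocytes were held in 2.5 µM milrinone and then matured in culture without it. There were 29 wildtype eggs, 61 mutant eggs that the labels divide into M1 (22), M2 (18) and M3 (21) without defining these names, and 17 wildtype eggs that were chemically activated with 10 mM strontium chloride for 2 h from 15 to 16 h after germinal vesicle breakdown. Eggs of all groups were collected at 38 to 40 h after germinal vesicle breakdown. Batch 1 held 5 wildtype, 4 M1, 2 M2 and 3 M3 eggs, and batch 2 held the other eggs, with the activated eggs and the wildtype eggs each on a plate of their own and the mutant groups on 2 shared plates. What the mutation does to Mos is not stated in these labels.

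Each library was 1 egg with 44 to 9132471 counts, and batch 1 was deeper than batch 2. No label ties eggs to animals, so the counts of all eggs sharing a group and a batch were added, giving 9 sums, and p-values measure only the spread between these sums, which may be technical. Mos itself was counted at 6.52 raw CPM (counts scaled to the total of a library) in the wildtype sum of batch 1 and 31.6 in batch 2, at 0.868 to 13.3 in the mutant sums and at 5.33 in the activated sum. M1 egg 6 gave 110 of 150 Mos counts in its sum and M1 egg 21 gave 92 of 137, so results were also computed without them. In batch 2, 9 of 24 wildtype eggs had over 35% of their counts in 50 genes. All 10 egg markers, such as Zp3 and Gdf9, were detected in every sum. The 16 granulosa and cumulus markers summed to 89.6 CPM in activated eggs and to 196 to 301 in the other sums. Of these, Ptx3 was at 0 in all 9 sums. The 9 blood and macrophage markers summed to 33.4 (M1 of batch 1) to 71.1 raw CPM (activated), though Ptprc, Adgre1, Tyrobp and Hba-a1 were at 0 in all 9. The 8 theca, stroma and endothelium markers summed to at least 40.8 raw CPM (M3 of batch 1). Low levels of transcripts listed for other cell types were thus counted in every sum.

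Of the 10 genes, 9 lie on chromosome 7 and Nlrp4f lies on chromosome 13. Promoters are shown for the Nlrp9 genes and for Nlrp4a, Nlrp4b and Nlrp4c. Levels of Nlrp9a and Nlrp9c, and of Nlrp4a and Nlrp4b, went together from egg to egg. Nlrp4c went less closely with Nlrp4a and Nlrp4b, and Nlrp4f, which went with Nlrp4a, is not printed. Each sequence is the 250 bases before a RefSeq transcription start (GRCm38.p6), written 5′ to 3′ on the strand of the gene, and RefSeq windows were matched for 9 of the 10 genes, all but Nlrp14. In the first set, capitals mark runs of at least 12 bases that Nlrp9a and Nlrp9c share, and Nlrp9b shares no such run with Nlrp9a.
Nlrp9a, chr7:26534773-26535022, plus strand: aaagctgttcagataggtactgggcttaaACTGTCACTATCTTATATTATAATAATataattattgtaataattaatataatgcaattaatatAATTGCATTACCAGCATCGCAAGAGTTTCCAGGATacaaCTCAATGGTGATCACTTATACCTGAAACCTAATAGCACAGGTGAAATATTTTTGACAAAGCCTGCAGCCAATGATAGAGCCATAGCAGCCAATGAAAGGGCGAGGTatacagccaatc
Nlrp9c, chr7:26403701-26403950, minus strand: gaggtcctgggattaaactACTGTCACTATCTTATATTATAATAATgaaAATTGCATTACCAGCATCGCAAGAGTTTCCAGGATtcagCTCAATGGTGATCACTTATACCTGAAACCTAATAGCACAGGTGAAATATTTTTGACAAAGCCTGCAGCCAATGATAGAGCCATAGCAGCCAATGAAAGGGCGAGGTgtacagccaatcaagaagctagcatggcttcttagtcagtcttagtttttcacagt
Nlrp9b, chr7:20007773-20008022, plus strand: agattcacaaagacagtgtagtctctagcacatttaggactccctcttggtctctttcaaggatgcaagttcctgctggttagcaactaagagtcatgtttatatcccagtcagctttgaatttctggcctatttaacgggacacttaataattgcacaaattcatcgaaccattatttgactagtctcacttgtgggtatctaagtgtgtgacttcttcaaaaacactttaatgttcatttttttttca
The windows of Nlrp9a and Nlrp9c were 96.5% identical over 202 aligned bases, with an unbroken identical stretch of 106 bases. The shared runs covered 168 of the 250 bases in each. For Nlrp9b the best alignment with Nlrp9a spanned only 30 bases. The window of Nlrp9b lies inside the gene as annotated by GENCODE, which begins at 19991465. Those of Nlrp9a and Nlrp9c adjoin their annotated starts, so the windows compared may not be at like places. Sequence before the annotated start of Nlrp9b was not compared.

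The second set shows Nlrp4 genes, with capitals for the runs of at least 12 bases that each shares with its named relative (Nlrp4a with Nlrp4c, Nlrp4b with Nlrp4c, Nlrp4c with Nlrp4a). Nlrp4a and Nlrp4b each have a further RefSeq start whose window is not printed.
Nlrp4a, chr7:26435364-26435613, plus strand: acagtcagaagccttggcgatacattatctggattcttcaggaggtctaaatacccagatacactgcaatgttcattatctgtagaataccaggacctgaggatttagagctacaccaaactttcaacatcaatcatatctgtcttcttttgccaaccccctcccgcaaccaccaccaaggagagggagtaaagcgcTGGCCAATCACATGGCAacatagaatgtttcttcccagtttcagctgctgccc
Nlrp4b, chr7:10687543-10687792, plus strand: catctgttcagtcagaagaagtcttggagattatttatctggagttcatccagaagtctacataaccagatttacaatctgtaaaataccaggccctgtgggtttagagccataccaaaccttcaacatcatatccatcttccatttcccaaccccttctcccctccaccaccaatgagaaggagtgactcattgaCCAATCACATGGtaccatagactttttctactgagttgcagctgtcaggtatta
Nlrp4c, chr7:6044911-6045160, plus strand: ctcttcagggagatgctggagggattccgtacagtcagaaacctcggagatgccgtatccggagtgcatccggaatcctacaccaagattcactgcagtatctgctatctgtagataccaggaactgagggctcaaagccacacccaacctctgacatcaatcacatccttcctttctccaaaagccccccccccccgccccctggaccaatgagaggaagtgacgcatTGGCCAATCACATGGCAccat
All 3 printed windows hold the same run, which contains the letters CCAAT followed by an E-box. The further window of Nlrp4b holds it too. The further window of Nlrp4a, from 26434863 to 26435112, shares no such run with Nlrp4c and has no CCAAT. It ends next to the start of the gene in the GENCODE annotation (26435113), while the printed window of Nlrp4a lies inside that gene. Searched on both strands, with each motif counted on its own even where letters overlap, the CCAAT box (letters CCAAT) was present in 8 of 11 windows of these genes and in 33.8% of all 32851 windows of that length. The E-box (CANNTG) was present in 9 of 11 and in 66.2% of all windows. The core bound by Nobox, an oocyte homeobox factor (TAATTN), was present in 3 of 11 and in 24.9% of all windows, and the TATA box core (TATAAA) in 1 of 11 and in 12.4%. The pair of windows of Nlrp4b overlap, so matches there were counted again: by gene, the CCAAT box was present in 7 of 9, the E-box in 7, the Nobox core in 3 and the TATA box core in 1. Such matches describe letters only.

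Levels between genes were compared as CPM after TMM scaling (a scaling for library composition) per kb of merged exons. Nlrp14, whose loss in female mice is known to stop early embryos, was the most abundant member, with a median of 1005 CPM per kb over the 9 sums and a range of 171 to 1330. It stood above the next gene, Nlrp4f, in 9 of 9 sums. Nlrp4f had a median of 175, Nlrp9a 150, Nlrp9b 116, Nlrp9c 81.6 and Nlrp4a 79.1 CPM per kb. These neighbours could not be ordered firmly: Nlrp4f exceeded Nlrp9a in 4 of 9 sums and Nlrp9a exceeded Nlrp9b in 6 of 9. Nlrp4e (26.3), Nlrp2 (25.7) and Nlrp4b (21.3) formed a lower set, in which Nlrp2 exceeded Nlrp4b in 3 of 9 sums. Nlrp4c had the lowest median, 6.98 CPM per kb, and was the lowest member in 7 of 9 sums, with Nlrp2 lower in the M1 and M3 sums of batch 1. With the length of the longest transcript in place of merged exons, Nlrp9c had a median of 150.5 and moved from the fifth to the fourth place, and Nlrp4b, with a median of 28.7, moved from the ninth to the seventh, above Nlrp4e and Nlrp2.

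Together the 10 genes made up 2447 CPM of the wildtype sum of batch 1 and 4175 of batch 2, 5817 to 8460 of the mutant sums other than M3 of batch 1, 2802 of that M3 sum and 6209 of the activated sum. Nlrp14 alone was 24.7% and 29.4% of this in wildtype, 31.7% to 76.7% in mutants and 32.4% in activated eggs. Among the 13832 genes tested, Nlrp14 ranked between 4 and 8 in abundance (CPM, not per length) in 5 of 6 mutant sums and 148 in M3 of batch 1, against 318 and 98 in the wildtype sums and 30 in the activated sum. CPM is a share of the RNA counted, so an equal shift of all transcripts of an egg would not be seen.

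**Figure D1:**
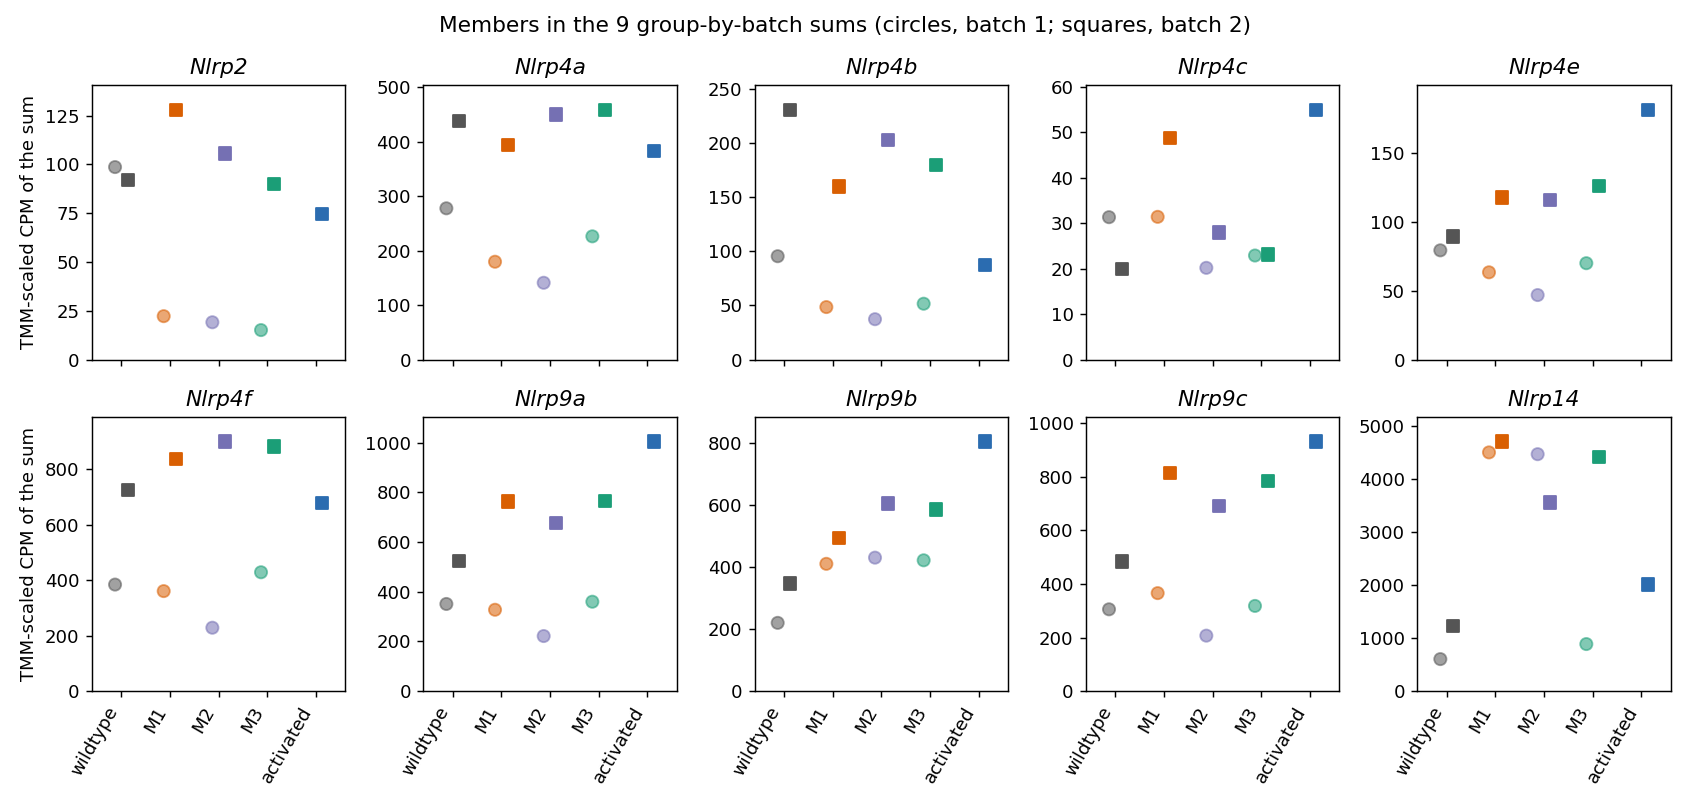
TMM-scaled CPM (vertical axes, each from 0) of the 10 genes in the 9 group-by-batch sums, with circles for batch 1 and squares for batch 2. Nlrp9b is higher in each of the 6 mutant sums and in the activated sum than in the wildtype sum of the same batch, and Nlrp2 is low in the 3 mutant sums of batch 1 only.

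At an equal depth of 60000 counts per egg, Nlrp4a, Nlrp4f, Nlrp9a, Nlrp9b, Nlrp9c and Nlrp14 each had a read in 104 of 104 eggs. Nlrp4b was detected in 97.1% of them, Nlrp4e in 95.2%, Nlrp2 in 87.5% and Nlrp4c in 72.1%. For Nlrp4c the share was 54.2% of wildtype eggs of batch 2 (exact 95% interval 32.8% to 74.4%) and 94.1% of activated eggs (71.3% to 99.9%). Intervals cover counting error only and take every library as a separate egg, though some activated libraries had like levels in pairs. The median count of Nlrp4c at this depth was 1 and 3 reads, near the limit of detection.

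Mutant eggs were first set against wildtype eggs, with the mean of M1, M2 and M3 as the mutant level. Nlrp9b rose in mutants, Nlrp4b fell, and the other 8 genes did not pass the test. In batch 2 wildtype and mutant eggs were on different plates, so plate and genotype cannot be told apart there. Nlrp14 had the largest fold of the 10 and lay just outside the threshold of an adjusted p of 0.05. Of the 13832 genes tested, 1298 (9.38%) passed in either direction, 5.36% higher and 4.03% lower. The 2 of 10 members called are too few to be read as different from that background. The median log2 fold was 0.06 for the 10 genes and 0.06 for all genes tested.

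Nlrp9b encodes an NLR of the oocyte-enriched Nlrp9 cluster (ENSMUSG00000060508, chromosome 7 from 19991465 to 20073306, plus strand). In batch 1 its TMM-scaled level was 220 CPM in the wildtype sum and 411, 431 and 422 in M1, M2 and M3. In batch 2 it was 348 in wildtype and 495, 606 and 586 in M1, M2 and M3. Each mutant sum thus exceeded the wildtype sum of its batch, with ratios of 1.86 to 1.95 (batch 1) and 1.42 to 1.74 (batch 2). The log2 fold was 0.81 ± 0.18 (SE), with an adjusted p of 0.0092. In single eggs of batch 1, raw levels in wildtype were 140, 185, 217, 236 and 243 CPM. M1 eggs held 178, 327, 396 and 853 CPM, M2 eggs 354 and 483, and M3 eggs 263, 402 and 542. All mutant eggs but 1 of M1 lay above the highest wildtype egg. In batch 2 the groups overlapped, with 42 of 49 mutant eggs above the wildtype median of 273 CPM. The medians of M1, M2 and M3 there were 449, 709 and 885 CPM on plate 1 and 415, 426 and 431 on plate 2, each above that of wildtype, which was on another plate. The call was lost without the wildtype sum of batch 1 (log2 fold 0.69, adjusted p 0.0775), without the batch term (adjusted p 0.338) and with sums per plate (adjusted p 0.112). Of the exon bases of Nlrp9b, 3.65% overlap Gm18877 on the same strand, and 6.22% of its 50-base windows occur in another gene.

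Nlrp4b (ENSMUSG00000034087, chromosome 7 from 10687789 to 10730168, plus strand) fell. Its level in batch 1 was 95.6 CPM in wildtype and 48.5, 37.3 and 51.6 in M1, M2 and M3. In batch 2 it was 231 in wildtype and 160, 203 and 180 in M1, M2 and M3. After TMM scaling, all 6 mutant sums were below the wildtype sum of their batch, at ratios of 0.391 to 0.540 (batch 1) and 0.693 to 0.879 (batch 2). In raw CPM this did not hold for M2 of batch 2. There the wildtype sum was at 199 raw CPM, and M1, M2 and M3 were at 170, 218 and 194. The log2 fold was -0.73 ± 0.21, with an adjusted p of 0.0373. In batch 1 the single wildtype eggs stood at 21.1, 51.9, 57.1, 134 and 149 raw CPM. The 9 mutant eggs ranged from 20.3 to 89.7 with a median of 42.9. The groups overlapped, and wildtype eggs 2 and 3 alone lay above the mutant range. In batch 2 the median was 191 raw CPM in wildtype eggs. In M1, M2 and M3 eggs it was 225, 225 and 267 on plate 1 and 165, 26.7 and 111 on plate 2. The mutant eggs of plate 1 were thus not below wildtype, which was on another plate. The call was lost without the wildtype sum of batch 1 (log2 fold -0.35, adjusted p 0.492), without any of the M1 sum of batch 1 (0.0861), the M1 sum of batch 2 (0.0554), the M2 sum of batch 1 (0.109) or the M3 sum of batch 1 (0.0549), and without the 9 wildtype eggs whose counts were concentrated in 50 genes (0.121). It was also lost with mean log2 CPM over eggs (0.0669), all mutant eggs pooled within batches (0.0704), sums per plate (0.558) and no batch term (0.852). No 50-base window of Nlrp4b occurs in another gene.

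Nlrp14 (ENSMUSG00000016626, chromosome 7 from 107166990 to 107198102, plus strand) was at 604 CPM in the wildtype sum of batch 1 and at 4498, 4464 and 887 in M1, M2 and M3. In batch 2 it was at 1226 in wildtype and at 4703, 3556 and 4406 in M1, M2 and M3. All 6 mutant sums were above wildtype of the same batch, by ratios of 1.47 to 7.45. The log2 fold was 2.05 ± 0.51, with an adjusted p of 0.0507. Among the batch 1 eggs, wildtype held 277, 403, 417, 667 and 839 raw CPM. M1 eggs held 314, 767, 9134 and 10730 CPM. M2 eggs held 1741 and 7019, and M3 eggs 465.6, 695 and 1504 CPM. Of the 9 mutant eggs, 5 lay above the highest wildtype egg. The highest M1 egg held 34.1 times the level of the lowest, against ratios of 4.03 in M2, 3.23 in M3 and 3.03 in wildtype. In batch 2, wildtype eggs ranged from 81.3 to 5388 CPM with a median of 457, M1 from 211 to 13208 (median 2491), M2 from 40.8 to 11966 (2182) and M3 from 716 to 10198 (4285). There 46 of 49 mutant eggs were above the wildtype median, and 19 above the highest wildtype egg. The SD of log2(CPM + 10) in batch 2 was 1.44 in wildtype, 2.02 in M1, 1.96 in M2 and 1.23 in M3. A single egg gave 79.7% of the Nlrp14 counts of the M2 sum of batch 1 and 42.2% of those of the wildtype sum of batch 2. Nlrp14 passed in 10 of 22 alternatives: without the M3 sum of batch 1 (log2 fold 2.25, adjusted p 5.26e-06), the M3 sum of batch 2 (1.51, 2.74e-06), the M2 sum of batch 2 (0.0284), the activated sum (0.0158) or M1 eggs 6 and 21 (0.0251), with DESeq2 (0.00477), with sums per plate (0.0456), and without the filter, with thinned eggs and with all mutant eggs pooled within batches. None of its 50-base windows occurs in another gene.

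**Figure D2:**
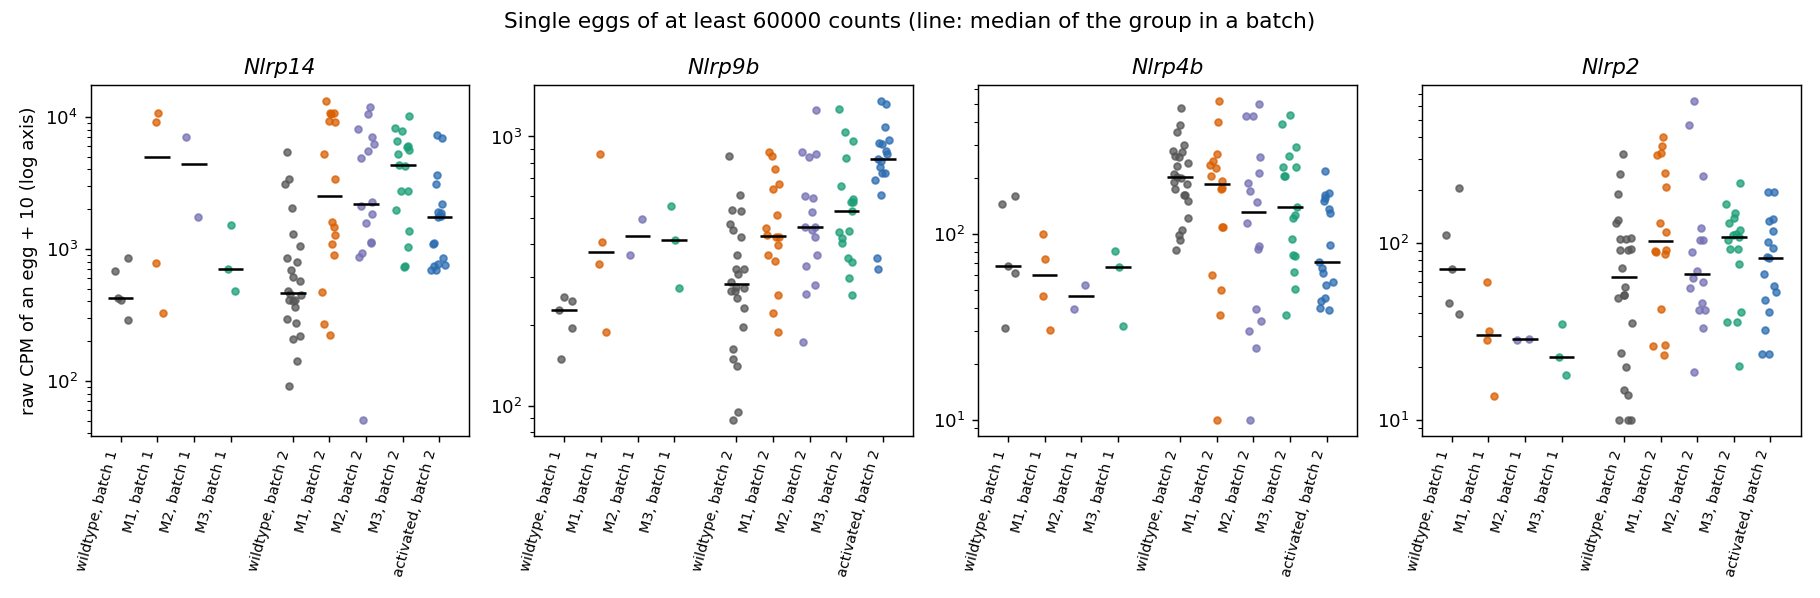
Raw CPM plus 10 (log axis) of Nlrp14, Nlrp9b, Nlrp4b and Nlrp2 in the 104 single eggs of at least 60000 counts, by group and batch, with a line at each median. In batch 2 the median of Nlrp14 is 457 CPM in wildtype eggs and 2182 to 4285 in the mutant groups, with overlapping ranges.

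Nlrp2, a maternal-effect NLR gene linked to imprinting in the offspring of carrier mothers, gave different values in batches 1 and 2, though the difference between batches did not pass the test. In batch 1 it was at 98.6 CPM in wildtype and at 22.2, 19.1 and 15.1 in M1, M2 and M3. In batch 2 it was at 92.1 in wildtype and at 128, 106 and 90.1 in M1, M2 and M3. The mutant sums of batch 1 lay at 0.153 to 0.225 of wildtype and those of batch 2 at 0.978 to 1.39. The fitted log2 fold over both batches was -1.39 ± 0.51 (adjusted p 0.157), and without the wildtype sum of batch 1 its sign turned (0.21). Without the wildtype sum of batch 2 it passed (-2.41, adjusted p 2.01e-05), as it did without the filter and with all mutant eggs pooled within batches (-1.12, adjusted p 0.0278). The mutant effect in batch 2 minus that in batch 1 was 2.62 ± 0.43 on the log2 scale, with an unadjusted p of 5.18e-05 and an adjusted p of 0.108. For this difference between batches 0 of 13832 genes (0%) and 0 of 10 members passed in edgeR, while 1146 genes and 1 member had an unadjusted p under 0.05. Nlrp2 passed with DESeq2 (adjusted p 1.64e-05) and without the filter on low counts (0.00639). Among batch 1 eggs, 8 of 9 mutant eggs (3.61 to 24.7 CPM) lay below the lowest wildtype egg (29.7), and M1 egg 6 held 50.7. Exons of Nlrp2 overlap Gm18757 on the opposite strand over 2.99% of their bases, and Smart-seq2 does not mark the strand.

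The remaining 6 genes had small fitted folds. Ratios of single mutant sums to wildtype of the same batch ran from 0.508 (Nlrp4a in M2 of batch 1) to 2.45 (Nlrp4c in M1 of batch 2). In the fit of mutants against wildtype, log2 folds were -0.34 ± 0.20 for Nlrp4a, 0.09 ± 0.29 for Nlrp4c, -0.03 ± 0.22 for Nlrp4e, 0.02 ± 0.20 for Nlrp4f, 0.10 ± 0.20 for Nlrp9a and 0.27 ± 0.20 for Nlrp9c, with adjusted p of 0.341 to 1. Nlrp4a, for example, was at 278 CPM in wildtype and 141.1 to 226 in mutants of batch 1, and at 439 and 395 to 459 in batch 2. Nlrp9a and Nlrp9c each exceeded wildtype in the 3 mutant sums of batch 2 (ratios of 1.29 to 1.46 and 1.43 to 1.68), while in batch 1 their ratios were 0.632 to 1.03 and 0.678 to 1.20. No difference in effect between batches passed for these genes either. The median of that difference was 0.70 for the 10 genes and 0.12 for all genes.

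Within the mutant groups, M2 and M3 were set against M1 over 9 sums per group and plate. No member passed in either comparison. M2 against M1 gave 0 of 11609 genes (0%; 718 with an unadjusted p under 0.05, among them 3 members), and M3 against M1 gave 6 of 11609 (0.0517%; 914 with an unadjusted p under 0.05, among them 1 member). DESeq2 and limma voom also called 0 members. Median log2 folds were -0.38 for the 10 genes and -0.01 for all genes in M2, and -0.02 and 0.02 in M3. Nlrp4c had the largest difference of the members in both, with M1 higher: the log2 fold was -0.84 ± 0.30 for M2 (adjusted p 0.796) and -0.92 ± 0.30 for M3 (adjusted p 0.554). Its level in M1 was 60.4 and 48.8 CPM on plates 1 and 2 and 32.1 in batch 1, against 30.3, 27.3 and 20.3 in M2 and 20.95, 26.5 and 24.1 in M3. Nlrp9b differed little between groups, by 0.03 ± 0.18 for M2 and 0.10 ± 0.18 for M3.

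Activated eggs had been exposed to strontium, which releases calcium in the egg as sperm would, and were set against untreated wildtype eggs. Here too Nlrp9b rose and Nlrp4b fell, and 8 members did not pass. Of all genes tested, 1797 passed (13%), 5.66% higher and 7.33% lower, and with upper quartile scaling 54.1% of the calls were higher instead of 43.6%, as the median of all genes moved from 0.15 to 0.30. The median log2 fold was 0.64 for the 10 genes, against 0.15 for all genes. The activated eggs form 1 sum on 1 plate, so plate and treatment cannot be told apart, and the test assumes that this sum varies like the others. The same wildtype sums enter the mutant comparison, so the shared calls of Nlrp9b and Nlrp4b are not independent of each other.

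Nlrp9b was at 806 CPM in the activated sum and at 348 in wildtype of the same batch, a ratio of 2.32. The log2 fold was 1.30 ± 0.26 (adjusted p 0.00268). Single activated eggs ranged from 313 to 1346 raw CPM with a median of 813, against 78.9 to 838 with a median of 273 in wildtype, and all 17 were above the wildtype median. Nlrp4b was at 87.5 CPM in the activated sum and 231 in wildtype of batch 2, a ratio of 0.379. Its log2 fold was -1.69 ± 0.37 (adjusted p 0.00511). Single activated eggs ranged from 29.0 to 207 CPM (median 60.8), with 9 of 17 below the lowest wildtype egg at 71.7. Both calls held without each of the sums in turn. Both were lost without the batch term (adjusted p 0.103 for Nlrp9b and 0.731 for Nlrp4b) and with sums per plate (0.0685 and 0.302). By their library names, some activated eggs in rows A and B of the same plate column had like levels. Eggs 4 and 12 held 1315 and 1346 raw CPM of Nlrp9b and 6880 and 7339 of Nlrp14. Eggs 7 and 15 held 678 and 725, and 678 and 755. Eggs 8 and 16 held 932 and 959, and 684 and 745. Whether the 17 libraries are all separate eggs was not tested, so counts out of 17 may overstate the number seen apart.

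Nlrp4c, Nlrp4e, Nlrp9a and Nlrp9c were each higher in the activated sum than in any other sum, but did not pass. Nlrp4c stood at 54.96 CPM against 19.9 in wildtype of batch 2 (log2 fold 1.00 ± 0.44, adjusted p 0.159). Nlrp4e stood at 182 against 89.6 (0.66 ± 0.35, adjusted p 0.252). Nlrp9a was at 1004 against 522 and Nlrp9c at 931 against 484 (each 0.64, SE 0.30 and 0.31, adjusted p 0.195 and 0.201). Without the wildtype sum of batch 1, these 4 genes passed, with adjusted p of 0.0291 to 0.04, and 6 members were called instead of 2, while all genes called went from 1797 to 2106. Of the 50-base windows of Nlrp4e, 36.9% occur in another gene, mostly in Gm16443, and for Nlrp4c 11.9%, mostly in Nlrp4e, so counts of this pair are uncertain. Nlrp14 (0.84 ± 0.68), Nlrp2 (-1.65 ± 0.88), Nlrp4a (-0.45 ± 0.32) and Nlrp4f (-0.29 ± 0.32) had adjusted p of 0.306 to 0.629. Nlrp14 passed without the M3 sum of batch 1 (1.05, adjusted p 0.0306) or the M3 sum of batch 2 (1.00, 0.0117), with thinned eggs, without the filter and with all mutant eggs pooled within batches, and Nlrp2 passed without the wildtype sum of batch 2 (-2.95, adjusted p 0.000131) and without the filter.

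**Figure D3:**
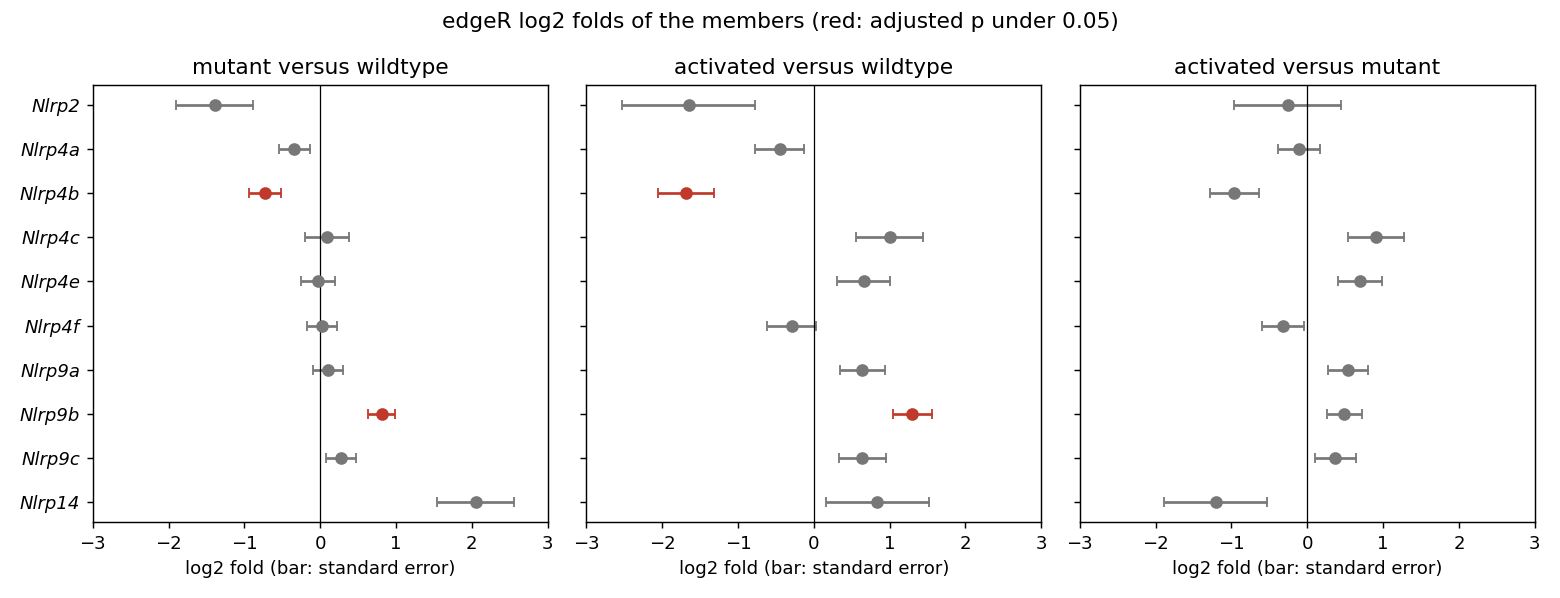
Log2 folds (horizontal axes) of the 10 genes with their standard errors in 3 comparisons, with red points for an adjusted p under 0.05. Nlrp9b (0.81 and 1.30) and Nlrp4b (-0.73 and -1.69) are red in both comparisons with wildtype, and no gene is red between activated and mutant eggs.

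Set directly against mutant eggs, activated eggs showed no member that passed, while 670 of 13832 genes did (4.84%, with 1.42% higher and 3.43% lower). The median log2 fold was 0.13 for the 10 genes and 0.05 for all genes. Without an adjustment, 4 members and 17.9% of all genes had a p under 0.05, and DESeq2 called 1 member, Nlrp4b (adjusted p 0.043). These 4 were Nlrp4b (-0.96 ± 0.32, adjusted p 0.1), Nlrp4c (0.91 ± 0.37, adjusted p 0.186), Nlrp4e (0.69 ± 0.29, adjusted p 0.212) and Nlrp9b (0.49 ± 0.23, adjusted p 0.276). Nlrp14 was at 2009 CPM in the activated sum and 3556 to 4703 in the mutant sums of batch 2, with a log2 fold of -1.21 ± 0.68 (adjusted p 0.435). Without the M3 sum of batch 1 the Nlrp14 fold passed (-1.20, adjusted p 0.0291). Nlrp4b passed without the wildtype sum of batch 1 (-1.05, adjusted p 0.0291) or of batch 2 (-1.07, adjusted p 0.0267).

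The deposited egg table gives 8 activated eggs a growth number of 1 and 9 eggs a number of 2, which the labels do not define. Nlrp14 ranged from 732 to 7339 CPM with a median of 2479 in the former and from 678 to 2161 with a median of 837 in the latter. Nlrp4b had medians of 108.7 and 51.8 CPM and Nlrp2 of 81.98 and 57.26, also lower for number 2. Nlrp9b had medians of 808 and 851, Nlrp9a of 924 and 1094 and Nlrp9c of 878 and 952, higher for number 2. No test was made, since eggs are not replicates and some activated eggs had like levels in pairs.

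Wildtype eggs of batch 2 also varied among themselves. In the 9 eggs with over 35% of counts in 50 genes, the median of Nlrp4f was 1063 CPM, against 451 in the other 15. Nlrp2 went the other way, with medians of 13.9 and 95.6 CPM, as did Nlrp14 with 285 and 605. The median of Nlrp9b was 278 and 267 CPM, and that of Nlrp4b 201 and 181.

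Across single eggs, some members kept close step. Correlations are given within batches over 14 and 90 eggs, as descriptions: the eggs of a batch share plates, groups and a range of depths. Nlrp9a and Nlrp9c had Spearman coefficients of 0.92 and 0.87, while Nlrp9a and Nlrp9b had 0.32 and 0.59. The transcripts of Nlrp9a and Nlrp9c were 88.2% identical and those of Nlrp9a and Nlrp9b 84.5%. Of the 50-base windows of Nlrp9a, 2.56% occur in Nlrp9c and 3.99% in Nlrp9b. The printed promoter windows of Nlrp9a and Nlrp9c are nearly the same. That of Nlrp9b lies inside its annotated gene, so it may not be at a like place. Nlrp4a went with Nlrp4f (0.87 and 0.70) and with Nlrp4b (0.82 and 0.68). The windows of Nlrp4a aligned with that of Nlrp4f over only 38 and 23 bases. Printed windows of Nlrp4a and Nlrp4b were 79.7% identical over 227 bases. Those of Nlrp4b and Nlrp4c were 79.2% identical over 207 bases, yet the coefficients of this pair were 0.56 and -0.04. For Nlrp4a and Nlrp4c the values were 76.1% over 213 bases, and 0.48 and 0.23. The further window of Nlrp4a, next to its annotated start, aligned with the printed windows of Nlrp4b and Nlrp4c over only 18 and 24 bases. Whether promoter likeness bears on levels was not tested. Nlrp14 went with Nlrp9b (0.69 and 0.52), and most closely with Nlrp5 (0.81 and 0.79), which is no member here. Nlrp14 and Nlrp4a had coefficients of -0.12 and 0.06.

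**Figure D4:**
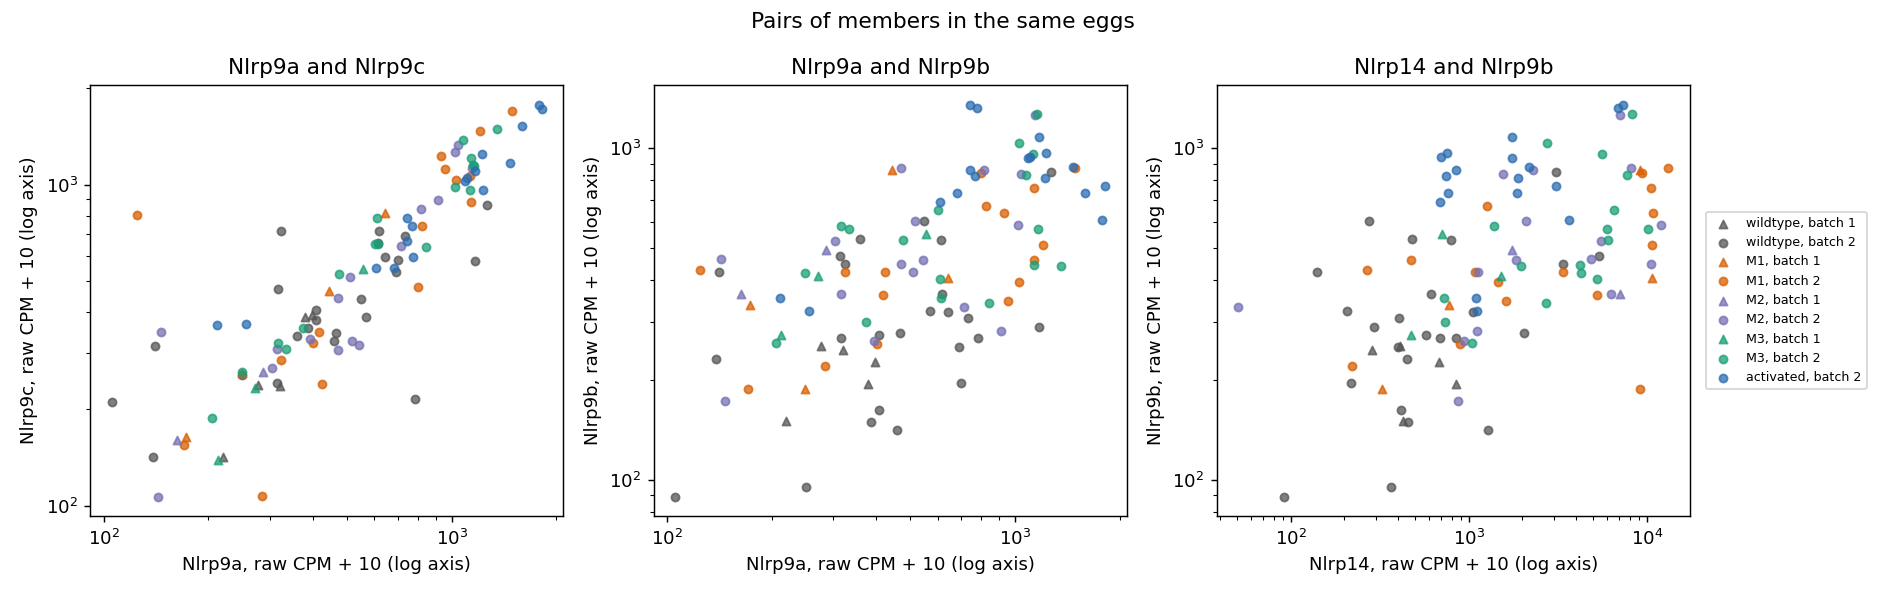
Raw CPM plus 10 (log axes) of 3 pairs of genes in the same 104 eggs, with triangles for batch 1, circles for batch 2 and a colour for each group. Nlrp9a and Nlrp9c lie along a line (Spearman 0.92 in batch 1 and 0.87 in batch 2), and Nlrp9a and Nlrp9b scatter more widely (0.32 and 0.59).

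Over the 9 sums, each gene centred within batches, the genes most like the mean profile of the 10 were Vmn2r24 (Pearson 0.96), Akap17b, Tmem232, Ogg1 and Vmn2r25 (0.94 each), among 6020 genes of sufficient level. The members themselves ran from -0.16 for Nlrp14 and 0.09 for Nlrp9b to 0.89 for Nlrp9a and 0.90 for Nlrp9c, so the mean profile does not stand for the genes with the clearest differences.

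Related gene lists were read from the same fits, in which the median log2 fold of all genes was 0.06 in mutants and 0.15 in activated eggs. Of all genes tested, 5.36% rose and 4.03% fell in mutants, and 5.66% rose and 7.33% fell in activated eggs. Of 6 other genes of the subcortical maternal complex, all tested, 2 rose and 2 fell in mutants, and the list's median was 0.67 in mutants and -0.67 in activated eggs. Nlrp5 rose (log2 fold 0.88 ± 0.25, adjusted p 0.0394), as did the co-repressor relative Tle6 (1.55 ± 0.34, adjusted p 0.0176). Padi6, an egg cytoplasmic lattice protein, fell by 0.95 on the log2 scale (adjusted p 0.00498), and Zbed3 fell by 0.97 (adjusted p 0.0115). In activated eggs 1 of the 6 changed, as Padi6 fell by 2.42 (adjusted p 0.000261). Of 20 other NLR genes 13 were tested, with medians of 0.88 in mutants and 1.59 in activated eggs. Among the 18 present in the count table, 3 (activated) to 10 (M2 of batch 1) were at 0 in each sum. These medians thus rest in part on genes with few or no reads. In mutants 2 rose, Nlrp5 and Naip1 (1.42 ± 0.40, adjusted p 0.0297), and in activated eggs 1 rose, Naip1 (1.78 ± 0.56, adjusted p 0.0413).

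Of 14 inflammasome partners 7 were tested (medians 0.84 and 0.92), and Aim2, Il1b and Mefv were at 0 in all 9 sums. In each sum 4 to 9 of the 14 were at 0, so these medians too rest in part on low counts. Txnip, a thioredoxin-binding protein, rose in mutants (0.84 ± 0.20, adjusted p 0.0111) and fell in activated eggs (-2.12, adjusted p 0.000295), and Nek7, a kinase that binds NLRP3, rose in activated eggs (1.34 ± 0.41, adjusted p 0.0398). Of 9 oocyte transcription factors (medians -0.48 and -0.36), 2 fell in mutants, Foxo3 (-0.71 ± 0.17, adjusted p 0.0125) and Lhx8 (-0.70 ± 0.20, adjusted p 0.0352), and 3 fell in activated eggs, Gtf2a1l (-2.56), Lhx8 (-1.51) and Foxo3 (-1.02). Of the 10 egg markers (medians -0.33 and -0.71), 3 fell and 1 rose in mutants and 4 fell in activated eggs. The falls in mutants were Gdf9 (-1.19), H1f8 (-1.24) and Zp1 (-0.70), and the first 3 by p in activated eggs were H1f8 (-3.39), Gdf9 (-2.54) and Zp3 (-2.99). Among the granulosa and cumulus markers, 10 of 16 were tested, and Serpine2 fell in activated eggs (-2.01, adjusted p 0.000512). The part of these shifts in the members' values was not tested.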

How the data were processed

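Smart-seq2 libraries of 107 single eggs were analysed from the deposited table of counts, whole numbers per gene that the authors had not normalised. Per the submitters' processing notes, STAR and HTSeq were used with GRCm38 and mm10 named. Versions, annotation and strand setting were not given in the sources used here. Positions and lengths came from GENCODE M21 (GRCm38) and promoters from RefSeq (GRCm38.p6).

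The 10 genes, the lists and the tests were chosen with earlier results of these data known. Counts were summed per group and batch, and the robust quasi-likelihood test of edgeR 4.0.16, run in R 4.3.3, was fitted on group plus batch with TMM scaling, a minimum count of 10 and Benjamini-Hochberg adjustment over 13832 genes, on 3 residual degrees of freedom. "Mutant" is the mean of M1, M2 and M3. The difference between batches had 4 degrees of freedom, as did the fit of M1, M2 and M3 over plates. SE is the log2 fold divided by the root of F. Fits were tested on simulated data.

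All members were named. Of each list, up to 3 called genes by p were named, or else the most abundant, and the 5 genes of at least 4 log2 CPM most like the members. Sums held 5436993 to 36209306 counts. Alternatives included limma 3.58.1 (voom), DESeq2 1.42.0, eggs thinned to 60000 counts, RLE or upper quartile factors, plates, no filter, and leaving out sums or eggs. The choice of M1 eggs 6 and 21 was made after seeing the data.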

Additional observations from a re-analysis of the deposited data

Results flagged for a closer look

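Nlrp4f in wildtype egg 5 of batch 1 stood apart from the other 4 wildtype eggs of that batch, at 93.8 raw CPM against 398 to 456. Its gap to the nearest egg was 0.841 of the range of the group. It was the only such value in 20 groups of single eggs examined, and chance gives about 1 in 20. The same egg was also the lowest wildtype egg of batch 1 for Nlrp4a, Nlrp4b, Nlrp4c, Nlrp4e, Nlrp9a, Nlrp9b and Nlrp9c, though not for Nlrp2 or Nlrp14.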

How the results depend on the processing

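The members called in mutants against wildtype numbered 2, and leaving out 1 sum at a time gave 0 to 3. The count was 4 without the filter on low counts, 1 without the wildtype eggs concentrated in 50 genes, 1 with mean log2 CPM over eggs, 0 without the batch term and 1 with sums per plate. For all genes the count of 1298 ran from 755 to 1262 over single left-out sums (755 without wildtype of batch 2, 782 without M1 of batch 1), and was 51 without the batch term and 409 with sums per plate. In activated against wildtype eggs the 2 members became 2 to 6 over left-out sums (6 without wildtype of batch 1), 4 without the filter, 4 with mean log2 CPM over eggs, 0 without the batch term and 0 with sums per plate. All genes called there were 1797, with 1433 to 2106 over left-out sums, 196 without the batch term and 666 with sums per plate. Between activated and mutant eggs the 0 members became 0 to 1 over left-out sums, 2 without the filter, 1 with DESeq2, 2 with eggs thinned to 60000 counts and 1 with the mutant eggs of a batch in 1 sum. The difference between batches called 1 member without the filter and 1 with DESeq2. The cause of these changes was not tested. Called folds of Nlrp9b and Nlrp4b kept their sign in every alternative run. With mean log2 CPM over eggs, 87.7% of all calls in mutants were higher instead of 57.1%, and 71.3% instead of 43.6% in activated eggs. Without the M1 eggs 6 and 21, an alternative chosen after seeing the data, the 1218 calls in mutants were close to the main count. The batch difference gives no value without either wildtype sum. No paired analysis was possible because the sums over eggs carry no replicate numbers, and blocking was by batch or plate, as terms of the fits reported. Depth limits Nlrp4c most, with 93 reads in the wildtype sum of batch 2.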
